A study of Mus musculus with 4 samples.

Results

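Retinoic acid binding proteins, degrading enzymes and receptors were followed in mouse embryonic stem cells (ESCs) in which Arid1a can be deleted. The 10 genes were Crabp1, Crabp2, Cyp26a1, Cyp26c1, Rara, Rarb, Rarg, Rxra, Rxrg and Dhrs3, taken by symbol out of 14382 genes in the deposited table. They were chosen by their mean CPM (reads scaled to library size) in both groups, so their differences between the groups are given as a description, with no p-value. All libraries came from Arid1af/f:CreERT2 ESCs, in which 4-hydroxytamoxifen (4-OHT) turns on a Cre recombinase that cuts floxed Arid1a. The ARID1A protein belongs to BAF complexes, which move nucleosomes. In one group 2 libraries came from cells given ethanol, the vehicle, and in the other 2 came from cells given 1 µM 4-OHT for 24 hours, with RNA taken 72 hours after treatment. The labels name no 4-OHT-treated cells without floxed alleles, so loss of Arid1a, Cre activity and 4-OHT itself cannot be told apart. They also do not say whether replicates were separate cultures, so p-values measure the spread between these libraries, which may be technical.

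Retinoic acid is a signalling molecule that cells make from vitamin A: retinol is oxidised to retinaldehyde and then to retinoic acid. CRABP proteins bind it in the cytoplasm, CYP26 enzymes oxidise it for removal, and in the nucleus it binds RAR receptors, which pair with RXR receptors on repeated half-sites in DNA. In ESCs and early embryos retinoic acid is known for ending pluripotency and for switching on Hox and neural genes, and genes of its own pathway, Cyp26a1, Rarb and Dhrs3 among them, are known to be induced by it.

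The sequence to which RAR and RXR pairs are known to bind is a direct repeat of a 6-base half-site, such as AGGTCA or AGTTCA. The form with 5 bases between the half-sites is called DR5. RefSeq promoter windows of mm10, from 250 bases before to 50 bases after a transcript start, covered 9 of the 10 genes with 17 windows (Crabp2 had none). The search allowed A or G as the first and G or T as the third base of each half-site. On both strands it found DR5 in 2 of them, those of Rarb and Cyp26a1, whereas 0.0974% of all 32851 windows held it. DR1 and DR2, the forms with 1 and 2 bases between the half-sites, matched in 0 of the 17 windows and in 0.222% and 0.268% of all windows. A match of letters is a description of the sequence and does not show binding. Both sites are shown because these members differed between the groups in opposite directions, as given further on. Capitals mark the half-sites. The Rarb site covers chr14:16575508-16575534 (mm10, minus strand, the strand of the gene), with the repeat 53 to 37 bases before a transcript start that lies inside the gene as GENCODE draws it. The Cyp26a1 site covers chr19:37697771-37697797 and is read on the minus strand, opposite to the gene. Its repeat lies 32 to 16 bases before the RefSeq transcript start, which also lies inside the gene as GENCODE draws it.
Rarb: ggaagGGTTCAccgaaAGTTCActcgc
Cyp26a1: aaattAGTTCAcccaaAGTTCAtcttt

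The 250 bases before the start are shown for Rarb (chr14:16575477-16575726, minus strand) to place its DR5, again in capitals, and for Crabp1 (chr9:54764498-54764747, plus strand), the member with the largest difference between the groups on the scale of log2(CPM + 1) (by read ratio Cyp26c1 is ahead). The Crabp1 window held no DR5, DR2 or DR1 and neither of the half-sites AGGTCA and AGTTCA, which stood in 16.3% and 14.0% of all windows. Of the bases shown, 58.0% were G or C in Rarb and 63.6% in Crabp1, beside a median of 52.4% over all windows.
Rarb: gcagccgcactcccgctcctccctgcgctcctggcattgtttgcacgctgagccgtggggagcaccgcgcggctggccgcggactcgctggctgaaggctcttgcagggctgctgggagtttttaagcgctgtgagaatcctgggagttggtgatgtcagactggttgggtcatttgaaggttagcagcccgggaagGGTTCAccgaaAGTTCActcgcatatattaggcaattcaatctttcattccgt
Crabp1: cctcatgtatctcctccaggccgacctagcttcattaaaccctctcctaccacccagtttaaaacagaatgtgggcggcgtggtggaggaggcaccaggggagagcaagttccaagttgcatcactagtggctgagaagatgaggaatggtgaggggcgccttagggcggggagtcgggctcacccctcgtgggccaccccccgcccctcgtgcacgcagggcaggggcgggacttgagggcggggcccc

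The deposited table gave each group's mean CPM. The whole reads of both libraries of a group were recovered from these means, and the libraries are called A and B because the columns carry no replicate numbers. Between 6050742 and 6849890 reads per library fell on the 14376 genes that could be resolved, and the floor of 3 reads, the limit that a count of 0 allows, came to 0.426 to 0.477 CPM. Floors and intervals cover counting error only. Arid1a, the targeted gene, fell from 517 and 502 CPM in ethanol to 241 and 213 CPM with 4-OHT (limma adjusted p = 7.27e-06). Its reads were counted over the whole gene, so reads outside the deleted part are included. All 10 listed markers of ESCs were measured, with a summed level of 5153 to 5254 CPM in ethanol and 5411 to 5494 CPM with 4-OHT. Of these, Nanog and Tdgf1 rose, Sox2 and Esrrb fell and 6 did not pass in limma, which called 9.46% of all genes. DESeq2 called 2 of these markers higher and 1 lower. The ESCs were kept on irradiated fibroblast feeders, so each library can hold feeder RNA. In such bulk samples more cells that express a gene and more RNA per cell cannot be told apart.

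Both binding protein genes were higher with 4-OHT. Crabp1 (ENSMUSG00000032291, mm10 chromosome 9, 54764748 to 54773110, plus strand) encodes a cytoplasmic protein that holds retinoic acid. It stood at 11.3 and 11.2 CPM in ethanol libraries A and B, and at 79.3 and 70.3 CPM in 4-OHT libraries A and B. The ethanol libraries were nearly equal, and both 4-OHT libraries lay far above them. The read ratio was 6.66 (95% counting interval 5.59 to 7.98, from 145 and 1000 reads). On the scale of log2(CPM + 1) the difference was 2.62 (SE 0.105), the third largest rise of all genes tested. Crabp2 (chromosome 3, 87948666 to 87953376, plus strand), whose protein passes retinoic acid on to RAR in the nucleus, stood at 20.0 and 22.6 CPM in ethanol and at 49.2 and 48.6 CPM with 4-OHT. The groups did not overlap, and the 4-OHT libraries were the closer pair. Its read ratio was 2.30 (95% counting interval 1.99 to 2.65), and its log2 difference 1.16 (SE 0.101).

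The genes of degrading enzymes were low in ethanol and higher with 4-OHT. Cyp26a1 (chromosome 19, 37697798 to 37701536, plus strand) encodes a main enzyme of retinoic acid removal in the early embryo. It had 7 and 10 reads in ethanol (1.08 and 1.56 CPM) and 35 and 33 reads with 4-OHT (4.97 and 5.25 CPM). Each 4-OHT library held over 3 times the reads of either ethanol library. Its read ratio was 3.86 (95% counting interval 2.24 to 7.01), and its log2 difference 1.40 (SE 0.208). Cyp26c1 (chromosome 19, 37685581 to 37693398, plus strand), which encodes a related enzyme, lies 4.4 kb before Cyp26a1 on the same strand. It had 1 and 2 reads in ethanol and 18 and 19 reads with 4-OHT (0.155 and 0.312 against 2.56 and 3.02 CPM). Both ethanol values lie under the floor of 3 reads, so its level there is not resolved at this depth. The read ratio was 11.9, with a 95% counting interval of 3.77 to 60.3. The log2 difference of CPM + 1 was only 1.62 (SE 0.216), since adding 1 CPM shrinks the differences of low genes.

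Of the RAR genes, Rarg was higher with 4-OHT, Rarb lower, and Rara differed little. Rarg (chromosome 15, 102234938 to 102257517, minus strand) stood at 166 and 149 CPM in ethanol and at 212 and 201 CPM with 4-OHT. The lowest 4-OHT library lay above the highest ethanol library. The read ratio was 1.31 (95% counting interval 1.24 to 1.39), and the log2 difference 0.39 (SE 0.0677). Rara (chromosome 11, 98927818 to 98974942, plus strand) stood at 56.6 and 59.9 CPM in ethanol and at 64.7 and 64.8 CPM with 4-OHT. Its groups did not overlap either, but the difference was small, with a read ratio of 1.11 (95% counting interval 1.01 to 1.23) and a log2 difference of 0.15 (SE 0.0747). Rarb (chromosome 14, 16430839 to 16819156, minus strand), the RAR gene best known as a target of retinoic acid, stood at 5.58 and 4.99 CPM in ethanol and at 2.27 and 1.11 CPM with 4-OHT. Its reads went from 36 and 32 to 16 and 7, and the 4-OHT libraries differed from each other by more than the ethanol libraries did. By reads the level was 3.06 times lower (95% counting interval 1.88 to 5.15), with a log2 difference of -1.26 (SE 0.242). The 3′ end of Rarb overlaps that of Top2b, which lies on the other strand (chromosome 14, 16365179 to 16435462). Top2b was at 111 and 115 CPM in ethanol and at 94.1 and 98.2 CPM with 4-OHT. It did not pass in limma (limma adjusted p = 0.0507), whereas edgeR called it lower (edgeR adjusted p = 0.0221). The use of strand in counting is not given in the sources used here, so the part of Top2b reads in the Rarb values was not tested.

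Both RXR genes among the members were lower with 4-OHT. Rxra (chromosome 2, 27676440 to 27762957, plus strand) stood at 59.2 and 62.7 CPM in ethanol and at 50.2 and 43.2 CPM with 4-OHT. The groups did not overlap, and 4-OHT library B was the lowest. By reads the level was 1.30 times lower (95% counting interval 1.17 to 1.45), with a log2 difference of -0.38 (SE 0.0914). Rxrg (chromosome 1, 167598384 to 167639623, plus strand) stood at 7.13 and 7.33 CPM in ethanol and at 3.41 and 2.07 CPM with 4-OHT. As with Rarb, the ethanol libraries lay close together and 4-OHT library B was the lowest. By reads the level was 2.60 times lower (95% counting interval 1.76 to 3.92, from 93 and 37 reads), with a log2 difference of -1.16 (SE 0.219). Rxrb, the third RXR gene and no member, did not pass (limma adjusted p = 0.768). Its groups overlapped, at 79.2 and 72.9 CPM in ethanol and at 73.3 and 84.9 CPM with 4-OHT.

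Dhrs3 (chromosome 4, 144892827 to 144928209, plus strand) encodes a reductase that turns retinaldehyde back into retinol and so lowers the supply of retinoic acid. It stood at 16.0 and 16.4 CPM in ethanol and at 10.8 and 11.3 CPM with 4-OHT. The libraries of each group were close, and the groups did not overlap. By reads the level was 1.47 times lower (95% counting interval 1.18 to 1.82), with a log2 difference of -0.51 (SE 0.139). Among the 3 members named above as induced by retinoic acid, Cyp26a1 was thus higher and Rarb and Dhrs3 were lower with 4-OHT. They were named as examples, so nothing is read from this count.

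**Figure D1:**
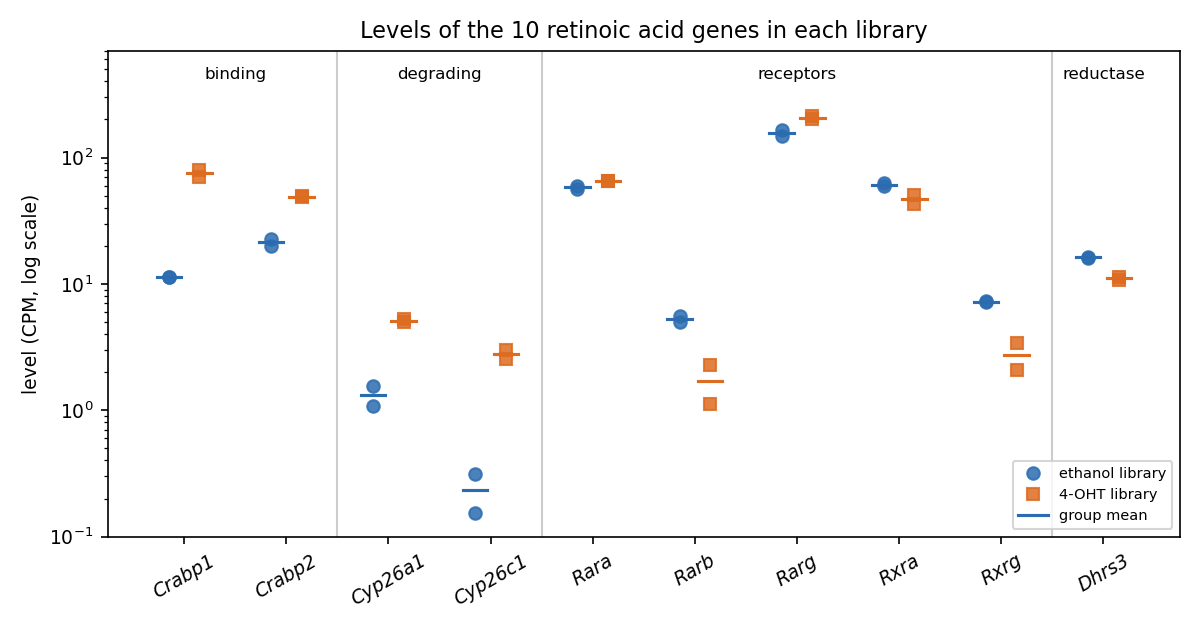
CPM (log scale) of the 10 members in the ethanol libraries (blue circles) and the 4-OHT libraries (orange squares), with lines at the group means. Crabp1, Crabp2, Cyp26a1 and Cyp26c1 lie higher with 4-OHT, Rarb, Rxrg, Rxra and Dhrs3 lower, and Rarg stays the highest in CPM, at 158 and 206 CPM.

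In a limma fit over all 14376 genes, 5 members were called higher, 4 lower and 1 (Rara) not, where 9.46% of all genes were called (5.24% higher, 4.22% lower). Groups did not overlap for 10 of 10 members (6 higher, 4 lower), nor for 52.1% of all genes (26.4% higher, 25.7% lower). Nothing is read from these counts, since values of the same comparison had a part in the choice of members. The median log2 difference was 0.27 over the members and -0.0016 over all genes, and the median absolute difference 1.16 and 0.14. All 10 members passed the filter on low counts in edgeR, which called 15.8% of its genes and the same members in the same directions. DESeq2, which called 5.21% of its genes, called the same 5 higher but only Rxrg lower, with Rarb, Rxra and Dhrs3 not past its threshold. A pseudocount of 0.1 lost Dhrs3. Without either 4-OHT library limma called 0 members, whereas edgeR then called 5 higher and 3 lower, losing Dhrs3 without library A and Rxra without library B. Without ethanol library B limma called 2 lower, Rarb and Rxrg, and without ethanol library A it called 3 lower, losing Dhrs3.

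Levels of different genes were set side by side as CPM per kb of merged exons of protein-coding transcripts. In ethanol Rarg led at 46.4 ± 3.58 CPM per kb (SD, n = 2), followed by Crabp2 at 22.9 ± 1.99, Crabp1 at 14.1 ± 0.0730, Rara at 13.6 ± 0.550 and Rxra at 11.9 ± 0.485 CPM per kb. Dhrs3, at 6.68 CPM per kb, Rxrg, at 3.15, Rarb, at 1.56, Cyp26a1, at 0.738, and Cyp26c1, at 0.134, followed in that order. In ethanol no neighbours in this order had overlapping libraries, although Crabp1 (14.1 and 14.0 CPM per kb) and Rara (13.2 and 14.0) were almost level. With 4-OHT Crabp1 came first at 93.2 ± 7.99 CPM per kb, above Rarg at 60.8 ± 2.24 and Crabp2 at 52.5 ± 0.412 CPM per kb. At the lower end Cyp26a1 (2.85 CPM per kb) and Cyp26c1 (1.60) now stood above Rarb (0.499). Cyp26c1 and Rxrg (1.19 CPM per kb) had overlapping libraries with 4-OHT, and were the only neighbours in the order to do so.

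The make-up of each family moved in different ways. Summed over Crabp1 and Crabp2, the level went from 36.9 ± 1.92 to 146 ± 8.40 CPM per kb (SD, n = 2), and the share of Crabp1 in it from 39.6% and 36.6% in ethanol to 65.2% and 62.6% with 4-OHT. Crabp2 was thus the larger part in both ethanol libraries and Crabp1 in both 4-OHT libraries. The summed RAR genes went from 61.6 ± 3.15 to 76.4 ± 2.45 CPM per kb. Rarg made up 76.7% and 73.9% of them in ethanol and 79.8% and 79.3% with 4-OHT, and Rarb went from 2.58% and 2.48% to 0.858% and 0.439%. The RAR make-up was therefore dominated by Rarg in all 4 libraries. Rxra, Rxrb and Rxrg together stood at 41.4 ± 1.01 CPM per kb in ethanol and 37.7 ± 1.45 CPM per kb with 4-OHT. Rxrb was the largest of them in every library, at 62.0% to 75.8%, while Rxrg went from 7.37% and 7.85% to 4.05% and 2.32%. The CYP26 family was taken as Cyp26a1 and Cyp26c1, and Cyp26b1 was not among the genes tested. The share of Cyp26c1 in their sum was 12.8% and 17.0% in ethanol, from 3 reads, and 34.5% and 37.1% with 4-OHT.

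**Figure D2:**
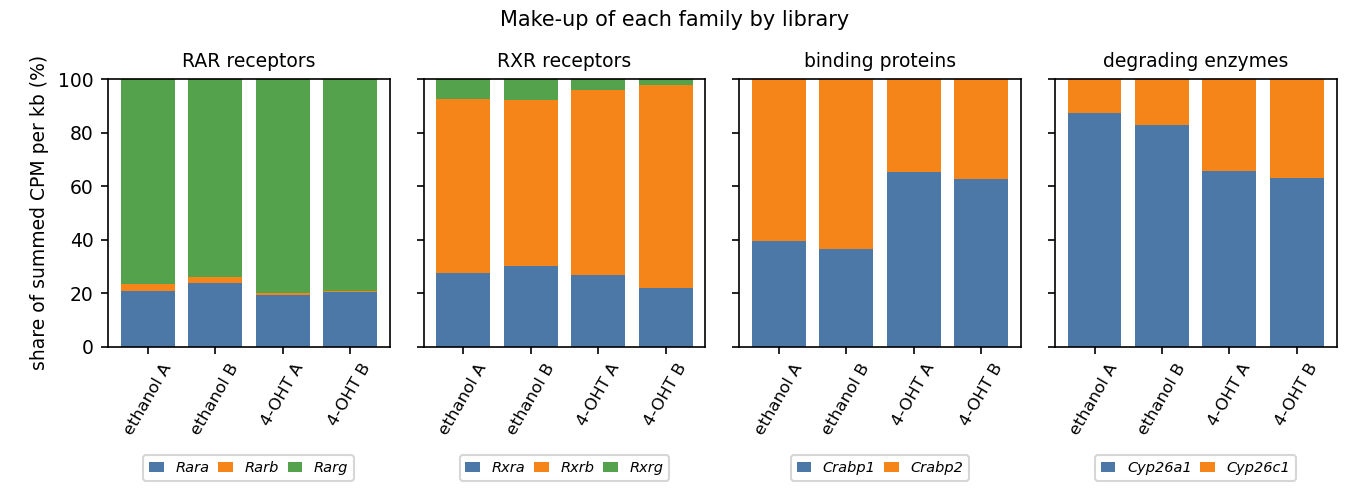
Share of each gene (%) in the summed CPM per kb of its family (for CYP26, Cyp26a1 and Cyp26c1 only), for each of the 4 libraries. Crabp1 takes 65.2% and 62.6% of the binding protein level with 4-OHT against 39.6% and 36.6% in ethanol, and Rarg takes 73.9% to 79.8% of the RAR level in all libraries.

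The other genes of the pathway were read from lists by role. Of 79 listed genes 57 were measured, of which 11 rose, 3 fell and 43 did not pass in limma, where 5.24% of all genes rose and 4.22% fell. DESeq2 called 6 higher and 2 lower, and edgeR 12 and 6. Their median log2 difference was 0.11, beside -0.0016 over all genes. The rises were mostly in genes known to respond to retinoic acid: 9 of 16 measured rose, 1 fell and 6 did not pass, with a median of 0.66. DESeq2 called 5 of them higher and 1 lower. Among them 6 of 9 measured Hox genes, patterning genes of the head-to-tail axis, rose in limma. Of those, edgeR also called 5 higher and left out Hoxb4 by its filter, and it called Hoxa3 higher, which did not pass in limma (adjusted p = 0.0771). DESeq2 called 2 Hox genes of the list higher. No Hox gene of the list fell with any of these tools, and 0 had an unadjusted p under 0.05 in that direction in limma. As the list was written with earlier results of these data known, its count is no independent evidence of a direction.

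Stra8, a gene of meiotic entry named for its induction by retinoic acid, rose from 6.97 and 8.89 CPM in ethanol to 55.4 and 48.6 CPM with 4-OHT (log2 difference 2.58, SE 0.140, limma adjusted p = 5.99e-06). Tgm2, which encodes a transglutaminase, rose from 5.73 and 5.77 to 17.1 and 19.7 CPM (limma adjusted p = 0.000344). Its libraries were close within each group. Hoxb2 rose from 6.04 and 5.30 to 14.8 and 11.9 CPM (limma adjusted p = 0.00349). Hoxb3 rose from 3.10 and 2.65 to 8.10 and 6.04 CPM (limma adjusted p = 0.0100), a call that DESeq2 did not make. These neighbours in the HoxB cluster both lay 2 to 3 times higher with 4-OHT. Hoxb4 went from 0 and 3 reads to 12 and 8 (ratio 6.43, 95% counting interval 1.91 to 33.8, limma adjusted p = 0.0295), and the filter on low counts in edgeR left it out. Its call was lost with a pseudocount of 0.1. Cdx1, a homeobox gene that responds to both retinoic acid and WNT signals, fell from 22.8 and 19.5 to 9.24 and 7.15 CPM (log2 difference -1.27, SE 0.164, limma adjusted p = 0.00102). The remaining 4 genes that rose, Hoxa2, Hoxa5, Hoxb1 and Meis2, had log2 differences of 0.49 to 1.02.

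Genes for the supply of retinoic acid were taken as synthesis and as carriers and storage, beside 9.46% of all genes called in limma. Of 10 measured genes of retinaldehyde and retinoic acid synthesis, 0 rose and 0 fell in limma. In that fit 2 had an unadjusted p under 0.05, 1 of them higher and 1 lower with 4-OHT. DESeq2 called 0 and edgeR called 1, Rdh10, lower. Rdh10, whose enzyme oxidises retinol, stood at 19.5 and 21.2 CPM in ethanol and at 15.8 and 13.7 CPM with 4-OHT (limma adjusted p = 0.0678, edgeR adjusted p = 0.0170). Aldh1a2, which encodes the main retinoic acid producing enzyme of the embryo, was low at 2.17 and 3.28 CPM in ethanol and at 2.70 and 1.75 CPM with 4-OHT, and its groups overlapped (limma adjusted p = 0.664). Of 5 measured genes for retinol carriers and storage 1 rose and 1 fell. Rbp7, a retinol binding protein gene, rose from 6.04 and 6.24 to 9.67 and 12.6 CPM (limma adjusted p = 0.0272), without passing in DESeq2.

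Among other binding and receptor genes Ppard fell and Fabp5 and Rxrb did not pass in limma, which called 9.46% of all genes. Ppard encodes a receptor that retinoic acid has been reported to reach as well. It went from 43.9 and 47.3 to 32.0 and 33.2 CPM (limma adjusted p = 0.00937), a call not made by DESeq2. Fabp5 encodes a protein reported to carry retinoic acid to that receptor. It stood at 10.1 and 11.7 CPM in ethanol and at 12.4 and 9.85 CPM with 4-OHT (limma adjusted p = 0.957). Of 6 other receptors that pair with RXR, 0 rose and 0 fell in limma, edgeR and DESeq2. Not all of them passed the filter on low counts in edgeR. In limma 3 had an unadjusted p under 0.05, all of them higher with 4-OHT, and the lowest adjusted p was 0.127. Of 17 coregulators that RAR and RXR recruit, Ncoa3, a coactivator gene, rose from 280 and 282 to 348 and 327 CPM (limma adjusted p = 0.0150) and 16 did not pass, of which edgeR called 2, Nrip1 and Zfp423, lower. Ncor1, a corepressor gene, stood at 284 and 302 CPM in ethanol and at 312 and 266 CPM with 4-OHT (limma adjusted p = 0.882).

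**Figure D3:**
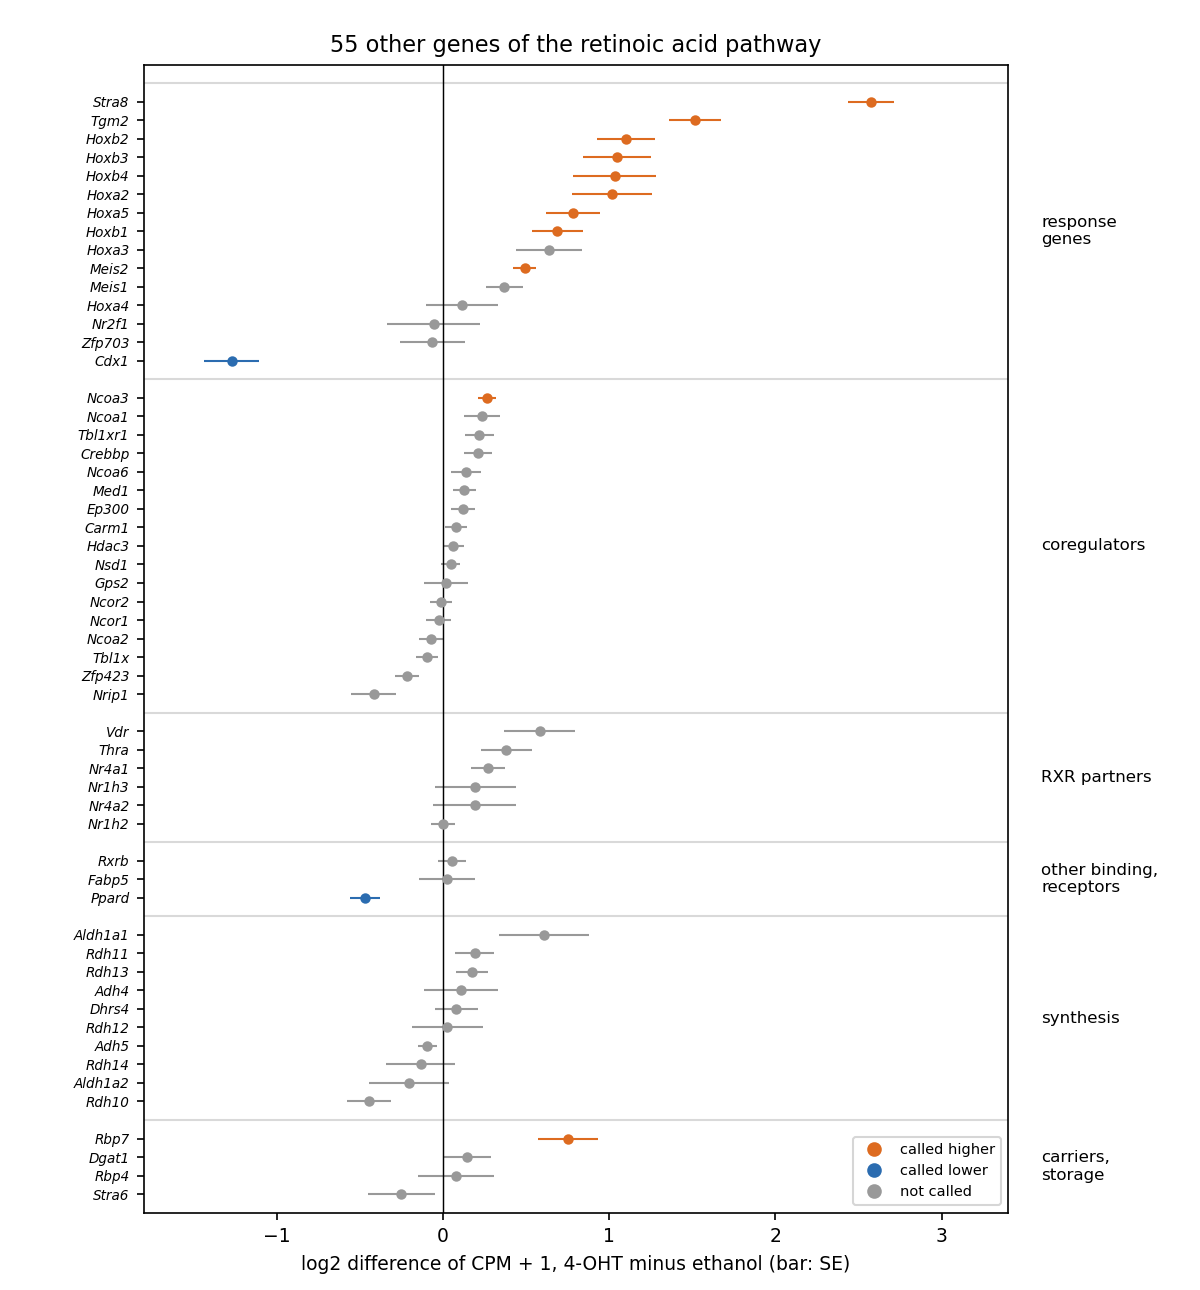
Log2 difference of CPM + 1 (4-OHT minus ethanol, horizontal axis, with its SE as a bar) of 55 of the other pathway genes, by role; orange genes rose, blue fell and grey did not pass in limma. Response genes hold 9 of the 11 rises, with Stra8 farthest at 2.58, and the 10 synthesis genes hold no call.

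The genes that lie next to the members were compared to see whether whole stretches differed. The nearest measured gene without overlap was taken on each side of every member, which gave 18 genes that are no members. Of these, 2 rose, 1 fell and 15 did not pass in limma, which called 9.46% of all genes. Genes overlapping a member were left out, so Top2b was not counted for Rarb. The genes taken for Rarb, Ngly1 and Nr1d2, lie 118.9 and 1384.9 kb away. Wdr61 and Ireb2, on both sides of Crabp1 at 30.2 and 90.7 kb, had log2 differences of -0.02 and -0.01 (limma adjusted p = 0.877 and 0.937). At Crabp2, Isg20l2 (8.0 kb before) did not pass, whereas Nes, 17.7 kb after it, fell from 212 and 226 to 152 and 143 CPM (limma adjusted p = 0.000441), opposite in direction to Crabp2. Exoc6, which ends 1.5 kb before Cyp26c1, stood at 25.1 and 25.4 CPM in ethanol and at 29.7 and 28.5 CPM with 4-OHT (limma adjusted p = 0.286). Myof, 197.5 kb after Cyp26a1, rose from 24.2 and 21.4 to 33.4 and 29.6 CPM (limma adjusted p = 0.0368), a call that was lost in DESeq2 and with a pseudocount of 0.1. The remaining limma call was Pramef12, 484.4 kb before Dhrs3, which rose from 13.3 and 11.4 to 20.3 and 22.6 CPM (limma adjusted p = 0.00763). It belongs to a family of similar copies, so its level is uncertain. Mgst3, 204.5 kb before Rxrg, stood at 13.8 and 15.4 CPM in ethanol and at 8.81 and 11.8 CPM with 4-OHT. It did not pass in limma (limma adjusted p = 0.112), whereas edgeR called it lower (edgeR adjusted p = 0.0259).

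**Figure D4:**
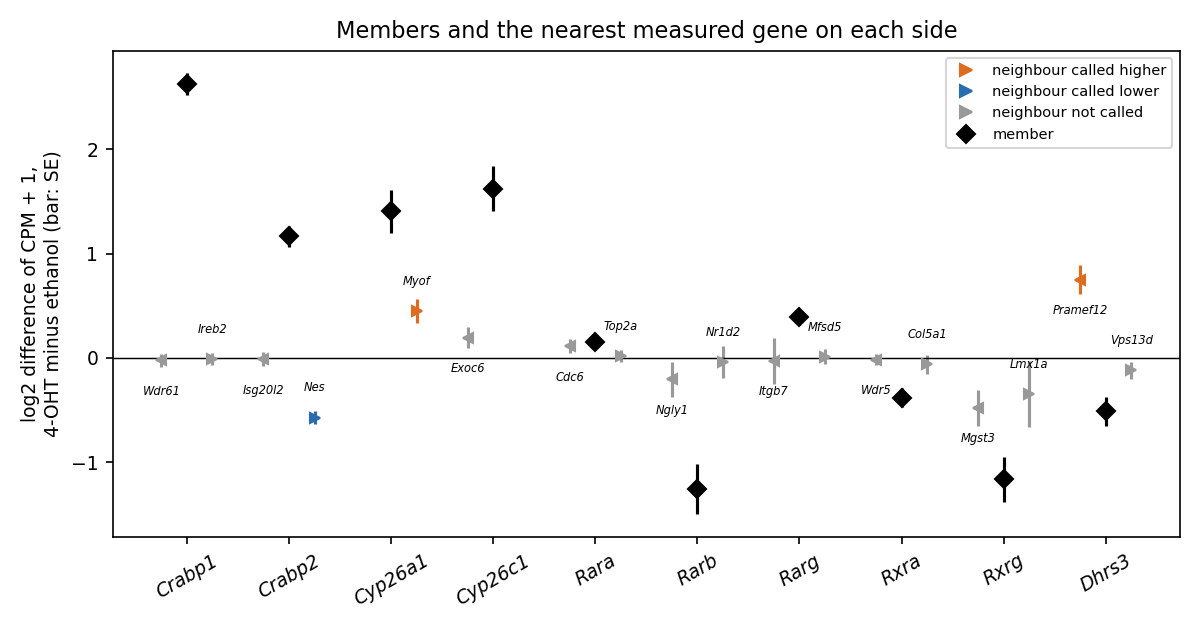
Log2 difference of CPM + 1 (4-OHT minus ethanol, with its SE) of each member (black diamonds) and of the nearest measured gene without overlap before (left triangle) and after it (right triangle). Orange neighbours rose, blue fell and grey did not pass in limma. Wdr61 and Ireb2 lie at -0.02 and -0.01 beside Crabp1 at 2.62, and Nes lies below 0 beside Crabp2.

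The 5 genes whose values over the 4 libraries lay nearest to those of Crabp1 were Stra8, Slc17a6, Fgf15, Gli1 and Fgf5. Likeness was the Euclidean distance between log2(CPM + 1) values, each centred on its gene's mean, among 12402 genes with a mean of at least 2 CPM. The distances were 0.23, 0.35, 0.36, 0.49 and 0.54 in log2 units. They rest on 4 points in 2 groups, so any gene with a rise of this size comes out near. Stra8 alone among them is on the lists of the pathway. Slc17a6, a vesicular glutamate transporter gene, had 0 reads in both ethanol libraries and 43 in each 4-OHT library. The growth factor gene Fgf15 went from 9.61 and 8.58 to 48.5 and 49.1 CPM.

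Markers of other cells that the cultures could hold moved along in part, beside 5.24% of all genes called higher and 4.22% lower in limma. Of 15 fibroblast feeder markers 9 were measured, with a summed level of 119 and 126 CPM in ethanol and 153 and 139 CPM with 4-OHT. Col1a2 and Thy1 rose, 0 fell and 7 did not pass in limma, whereas DESeq2 called 1 higher and 0 lower. Col1a1, the most abundant at 46.3 to 48.0 CPM in ethanol, stood at 45.9 to 50.7 CPM with 4-OHT. Of 10 neural progenitor markers 6 were measured, of which 5 rose and Nes fell in limma. DESeq2 called 4 higher and 1 lower. Their summed level was 361 and 369 CPM in ethanol and 408 and 389 CPM with 4-OHT. Sox1, an early neural factor gene, rose from 91.3 and 87.5 to 160 and 149 CPM (limma adjusted p = 0.000110). Of 10 primitive endoderm markers 7 were measured, with a summed level of 35.3 and 36.5 CPM in ethanol and 43.9 and 40.4 CPM with 4-OHT, and 0 passed in limma, where 2 had an unadjusted p under 0.05 (edgeR called 2, Sox7 and Cubn, higher and DESeq2 0). None of the measured markers on these 3 lists had 0 reads in ethanol. The part of feeder, neural or endoderm cells in the levels of the 10 genes was not tested.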

How the data were processed

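PolyA RNA of 4 samples was sequenced, 2 per group. The labels' protocols name a pair of TruSeq kits without saying which library had which, so kit and treatment cannot be told apart. The submitters' processing notes name FastQC, Trimmomatic, HISAT2, edgeR and mm10. Versions, counter, annotation and strand use: not given in the sources used here. Per the file headers, the authors deposited each group's mean CPM. Their deposited p-value and log2 fold change columns were left unused: sorted by gene ID as text, the p-values fell in 0 of 14381 steps, and the fold changes had a Spearman rho of 0.0159 with the log2 ratio of the means, across genes.

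A mean of 2 libraries is a sum of whole reads times 2 library steps, which were fitted from low values. Whole reads explained 100% of values to the digits given, with a single solution for 99.7% (ethanol) and 99.95% (4-OHT). Where there were several, the solution with libraries within 2-fold was taken, and 6 genes, none a member, were left out. Effective sizes were 6451759 and 6410293 (ethanol) and 7035534 and 6291532 (4-OHT).

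The test was limma-trend 3.58.1 (R 4.3.3), two-sided, on log2(CPM + 1) without a filter, with Benjamini-Hochberg adjustment over 14376 genes and a threshold of 0.05. Alternatives were edgeR 4.0.16 (quasi-likelihood) and DESeq2 1.42.0 on the recovered reads, DESeq2 size factors, a pseudocount of 0.1, a minimum mean of 1 CPM and leaving out each library. Fits were tested on simulated data. Positions and exon lengths came from GENCODE vM21 (mm10, 1-based) and promoter windows from RefSeq (GRCm38.p6). Intervals of read ratios are exact, conditional on the total.

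The members, the lists and the rule for named genes were chosen with earlier results of these data known. Named were the members, Arid1a, Cyp26b1 (not among the genes tested), Rxrb, Rdh10, Aldh1a2, Stra8, Fabp5 and Ncor1, up to 6 called genes with the largest change per pathway list, the nearest measured gene without overlap on each side of a member, and the 5 genes most like Crabp1. Marker genes and Top2b, which overlaps Rarb, were named after their values were seen. Among the other pathway genes, 2 were counted but are not reported here by name or plotted.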

Additional observations from a re-analysis of the deposited data

How the results depend on the processing

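The libraries of the groups do not overlap for any of the 10 members, which were chosen by this comparison, so their directions could hardly turn under the alternatives and are no sign of stability. The alternatives were other scaling, a pseudocount of 0.1, a minimum mean of 1 CPM, edgeR, DESeq2 and leaving out each library in limma and in edgeR (the last chosen after seeing the data). Of 130 log2 differences of members 34 moved by more than the spread between replicates and 96 did not. Those that moved came from the pseudocount, edgeR, DESeq2 or edgeR with a library left out. Over all settings, moved or not, Cyp26c1 ranged widest, from 1.53 to 4.01, and Rarb ranged from -2.23 to -0.94. These ranges mix scales, since edgeR and DESeq2 do not add 1 CPM before taking the log2. Of 490 values of other named genes, 51 lost and 8 gained a call and 0 reversed.

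Over all genes, 754 were called higher and 606 lower. DESeq2 called 385 and 319, a minimum of 1 CPM gave 1053 higher and 981 lower, and edgeR 1053 higher and 989 lower. The counts of pathway genes were 11 higher and 3 lower. DESeq2 called 6 higher and 2 lower, and the minimum of 1 CPM and edgeR each called 12 higher and 6 lower. DESeq2 called 1 member lower in place of 4. Leaving out each library, limma called 0 to 626 genes higher and 0 to 461 lower, 0 to 10 pathway genes higher and 0 to 3 lower, and 0 to 5 members higher and 0 to 3 lower. The zeros came from leaving out either 4-OHT library, where the lowest adjusted p was 0.129 and 0.121 and 2505 and 2514 genes had an unadjusted p under 0.05. In the same settings edgeR called 662 to 953 genes higher and 579 to 829 lower, 10 to 14 pathway genes higher and 3 to 6 lower, and 5 members higher and 3 to 4 lower. Without either ethanol library, which leaves the same residual degree of freedom, limma called 626 and 568 genes higher. The cause of these differences was not tested. No paired analysis was possible because the columns carry no replicate numbers. Depth limits Cyp26c1 and Hoxb4 in ethanol, at 3 reads each.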
